A study of Mus musculus with 28 samples.

Results

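The 9 genes described here were *Bcl2*, *Bcl2l1*, *Mcl1*, *Bax*, *Bak1*, *Bid*, *Bcl2l11*, *Bbc3* and *Pmaip1*, taken by name from the BCL2 family out of the 53801 genes in the bulk RNA count tables. The data came from Ai9-labelled (td-Tomato+) skeletal cells of mice with a Cre driver. In the knockout groups Cre recombinase removed the protease gene *Zmpste24* (*Z24*), a model of premature aging. The question asked of these genes was whether the RNA of the mitochondrial cell death machinery, or the openness of its promoters, differed between knockout and control skeletal stem/progenitor cells (SSPCs).

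Bulk RNA and ATAC libraries were made from 20-week-old mice, with 3 control and 3 conditional knockout (CKO) libraries for each of growth plate SSPCs (gpSSPCs, sorted as Ai9+ CD73+) and periosteal SSPCs (pSSPCs, sorted as Ai9+ Sca1+). The genotype label reads PrxCre; Z24fl/fl for all bulk libraries, those titled ctrl included, so control and CKO were taken from the titles. Single-cell RNA was measured in bone and bone marrow cells negative for CD45, Ter119 and CD31, with 1 library per group. The 16-week libraries were labelled PrxCre; Z24fl/+ (control) and PrxCre; Z24fl/fl (CKO), and the 8-week libraries OsxCre; Z24fl/fl and PrxCre; Z24fl/fl, although the study describes the latter as Cre; Ai9 mice without a *Z24* deletion. Prx1-Cre acts in limb mesenchyme and its descendants and Osx-Cre in osteoblast-lineage cells, so every group carried a Cre driver, and no separate animals were named behind the replicate numbers. P-values over libraries therefore measure the spread between these libraries, which may in part be technical.

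Proteins of the BCL2 family decide whether the outer mitochondrial membrane stays sealed. The guardians BCL2, BCL-XL (from *Bcl2l1*) and MCL1 hold the pore formers BAX and BAK in check, and BH3-only proteins (BIM from *Bcl2l11*, BID, PUMA from *Bbc3*, NOXA from *Pmaip1*) relieve that restraint after stress. Once pores form, cytochrome c leaves the mitochondrion and the apoptosome activates the caspases. Much of this control is exerted on the proteins, which RNA and chromatin do not measure.

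*Zmpste24* itself was read first, as a check of the labels. In bulk RNA its level in CPM (a gene's counts scaled to the library's total, with TMM factors) was 0.849, 15.8 and 16.3 in control pSSPC replicates 1, 2 and 3 against 0, 7.78 and 7.11 in CKO pSSPCs. In gpSSPCs the control libraries held 4.75, 14.9 and 16.1 CPM and the CKO libraries 1.17, 8.29 and 7.53 CPM. *Zmpste24* was thus lower in the CKO library of each of the 6 numbered pairs, although edgeR's quasi-likelihood test did not call it (log2 fold change -1.17 ± 2.17 SE in pSSPCs and -1.13 ± 1.42 in gpSSPCs, adjusted p = 1 in both). In the single cells, control held 70 *Zmpste24* UMIs and CKO 11 at 16 weeks, and the 8-week libraries held 45 (Osx-Cre) and 27 (Prx1-Cre). Scaled as CPM over the 5 named classes described below, that was 20.1 CPM (95% exact Poisson interval 15.6 to 25.4) in control and 2.65 (1.21 to 5.04) in CKO, without overlap. The 8-week libraries, labelled Z24fl/fl, held 43.5 (31.7 to 58.2) with Osx-Cre and 16.9 (11 to 24.8) with Prx1-Cre, both above the 16-week CKO interval, so their levels went against that label and they are called here by their Cre driver.

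Replicate 1 of every bulk RNA group stood apart from replicates 2 and 3. Library totals ran from 1333260 to 5315709 counts. Replicate 1 libraries held 12082 to 12981 detected genes and the others 15776 to 17207. Replicates 2 and 3 of a group differed by no more than sampling noise over genes with 5 to 99 counts (chi-square per degree of freedom 0.805 to 0.972, against 10.2 to 14.2 for pairs with replicate 1) and by little more over genes with at least 20 counts (1.59 to 1.92, against 53.2 to 71.4). They were therefore summed and counted as 1 sample, which left 2 samples a group. Means ± SD below have n = 2 for this reason.

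The members lie on 6 chromosomes, *Pmaip1* aside. On the GRCm38 (mm10) build the gene bodies are *Bcl2* (ENSMUSG00000057329.7, chr1:106538178-106714274, minus strand), *Bcl2l1* (ENSMUSG00000007659.18, chr2:152780668-152831728, minus), *Bcl2l11* (ENSMUSG00000027381.16, chr2:128126038-128162547, plus), *Mcl1* (ENSMUSG00000038612.16, chr3:95658788-95663176, plus), *Bax* (ENSMUSG00000003873.11, chr7:45461697-45466898, minus), *Bak1* (ENSMUSG00000057789.13, chr17:27019810-27029009, minus), *Bid* (ENSMUSG00000004446.12, chr6:120891930-120916853, minus) and *Bbc3* (ENSMUSG00000002083.13, chr7:16308393-16318205, plus). Exons of 4 members overlap those of another annotated gene: *Bcl2* shares 558 bases with D630008O14Rik, *Bax* 192 bases with Gm45808 on its own strand, *Bak1* 614 bases with *Ggnbp1* and *Bid* 628 bases with *Bcl2l13*. Reads in those stretches could have been counted for either gene or for neither.

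The promoters that the results below turn on are shown as the 250 bases upstream of a RefSeq start (GRCm38.p6), read 5′ to 3′ on the gene's strand, outside any annotated UTR. They are both starts of *Bcl2l11* (chr2:128125788-128126037 and chr2:128127325-128127574), whose peaks decide its ATAC value, *Bax* (chr7:45466899-45467148), *Bcl2l1* (distal start, chr2:152831729-152831978) and *Bcl2* (chr1:106714291-106714540). Capitals mark 4 motifs searched on both strands, the GC box GGGCGG, the CCAAT box CCAAT, the E-box CACGTG and the FOXO motif GTAAACA, and a motif on the other strand appears as its reverse complement.
Bcl2l11 first start: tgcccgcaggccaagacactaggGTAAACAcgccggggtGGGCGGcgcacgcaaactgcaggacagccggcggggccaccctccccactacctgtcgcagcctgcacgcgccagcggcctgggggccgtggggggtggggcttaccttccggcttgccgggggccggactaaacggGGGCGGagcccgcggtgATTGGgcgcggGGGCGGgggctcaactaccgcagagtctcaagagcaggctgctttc
Bcl2l11 second start: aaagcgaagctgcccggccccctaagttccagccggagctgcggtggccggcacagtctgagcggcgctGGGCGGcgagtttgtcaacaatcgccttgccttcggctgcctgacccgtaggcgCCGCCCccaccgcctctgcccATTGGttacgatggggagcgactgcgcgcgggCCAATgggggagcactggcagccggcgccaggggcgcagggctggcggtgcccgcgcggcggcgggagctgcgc
Bax: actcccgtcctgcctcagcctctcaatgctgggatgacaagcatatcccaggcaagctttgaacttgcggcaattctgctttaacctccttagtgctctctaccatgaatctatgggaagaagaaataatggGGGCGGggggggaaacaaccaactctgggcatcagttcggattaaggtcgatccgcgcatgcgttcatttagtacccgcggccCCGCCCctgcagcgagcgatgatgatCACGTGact
Bcl2l1 distal start: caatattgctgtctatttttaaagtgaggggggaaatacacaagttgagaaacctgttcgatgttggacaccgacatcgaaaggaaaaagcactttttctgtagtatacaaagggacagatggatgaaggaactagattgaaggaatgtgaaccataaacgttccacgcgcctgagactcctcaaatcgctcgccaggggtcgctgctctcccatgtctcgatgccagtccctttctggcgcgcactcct
Bcl2: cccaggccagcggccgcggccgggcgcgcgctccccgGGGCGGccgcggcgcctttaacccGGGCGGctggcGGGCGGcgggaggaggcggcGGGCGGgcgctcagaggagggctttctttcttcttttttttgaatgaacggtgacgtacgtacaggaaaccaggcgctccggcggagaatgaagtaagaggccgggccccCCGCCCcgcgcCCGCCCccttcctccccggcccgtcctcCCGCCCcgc

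These windows differed in what they held. *Bcl2* had 7 GC boxes and none of the other 3 motifs. The first start of *Bcl2l11* had 3 GC boxes, 1 CCAAT box and 1 FOXO motif (first base at -227 from the start), and its second start 2 GC boxes and 2 CCAAT boxes. *Bax* had 2 GC boxes and 1 E-box at -9, and *Mcl1*, not shown, 1 GC box at -20. None of the 4 motifs' letters stood in the distal *Bcl2l1* window. Among 32851 RefSeq starts, 32.7% had a GC box in the same window, 33.8% a CCAAT box, 6.02% an E-box and 3.17% a FOXO motif. RefSeq windows were matched for 8 of the 9 members.

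No member was called between CKO and control in either SSPC population. Of the 9, 7 passed the filter on low counts in gpSSPCs (*Bid* and *Pmaip1* did not) and all 9 in pSSPCs. edgeR's quasi-likelihood test called 0 members at an adjusted p under 0.05, beside 0% of 12041 genes tested in gpSSPCs and 0% of 11878 in pSSPCs, and 0 members at an unadjusted p under 0.05, beside 0.473% and 1.2% of genes. At the study's own thresholds (a log2 fold change beyond 0.25 either way, with p below 0.05 before adjustment) this edgeR fit held 0 members. Beside this stood 0.307% of genes higher and 0.166% lower in gpSSPCs and 0.261% and 0.935% in pSSPCs. The study applied these thresholds to DESeq2, whereas here replicates were summed and edgeR was fitted. With the replicate number as a block, edgeR called 0 members, beside 0.0997% and 0.32% of genes, and only *Bax* in pSSPCs met the study's thresholds, as did 3.85% of genes in gpSSPCs and 5.23% in pSSPCs. DESeq2 called 1 gene in gpSSPCs and 0 in pSSPCs, no member among them. At an unadjusted p under 0.05, DESeq2 had 0 members in both populations. The edgeR result depended on the summing of replicates. With each library counted as a sample, edgeR had 2 members at an unadjusted p under 0.05 in pSSPCs and 0 in gpSSPCs. With 2 degrees of freedom left, the main fit allowed wide intervals, and the sizes below should be read with them. The members' median log2 fold change was -0.12 in gpSSPCs (all genes 0.00) and -0.20 in pSSPCs (all genes -0.02).

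Among the guardians, *Bcl2* levels in control pSSPC replicates 1, 2 and 3 were 31.4, 15.5 and 17.2 CPM, against 5.2, 10.8 and 16.5 CPM in CKO pSSPCs. In gpSSPCs the control values were 16, 23 and 17.1 CPM and the CKO values 27.5, 21.7 and 26.8 CPM. The CKO libraries were on the low side in the periosteum and on the high side in the growth plate, with overlap in both. The log2 fold change was -1.24 ± 1.24 (edgeR, adjusted p = 1) in pSSPCs and 0.56 ± 0.67 (adjusted p = 1) in gpSSPCs. The difference between these effects, 1.80 ± 1.19, was not called either (edgeR interaction, adjusted p = 1). Both the pSSPC value and this difference rested on replicate 1, without which they were -0.21 and 0.56.

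*Mcl1*, whose protein is short-lived and constantly remade, held 121, 199 and 188 CPM in control pSSPCs and 153, 222 and 204 CPM in CKO pSSPCs. The gpSSPC values were 94.5, 192 and 198 CPM in control and 108, 141 and 134 CPM in CKO. Groups overlapped in both populations, and the replicate 1 library was the lowest of each group. Each CKO library lay above its numbered control in pSSPCs, by 32, 23 and 16 CPM, while in gpSSPCs 1 pair was higher and 2 were lower in CKO. The log2 fold change was 0.23 ± 0.58 in pSSPCs and -0.25 ± 0.52 in gpSSPCs (edgeR, adjusted p = 1 in both).

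*Bcl2l1* RNA differed by population more than by genotype. Control gpSSPCs held 232, 177 and 190 CPM and CKO gpSSPCs 302, 150 and 160 CPM. Control pSSPCs held 140, 45 and 47.6 CPM and CKO pSSPCs 96.2, 65.3 and 65.2 CPM. All 6 gpSSPC libraries lay above all 6 pSSPC libraries, and *Bcl2l1* was the only member of which this was true; 3.58% of 13173 genes tested lay wholly higher in gpSSPCs in the same way. The log2 difference of gpSSPCs over pSSPCs was 1.18 ± 0.59 in control (edgeR, adjusted p = 0.869) and 1.498 ± 0.594 in CKO (adjusted p = 1), neither called. At an unadjusted p under 0.05 stood 0 of 8 members in control (6.19% of genes), *Bcl2l1* alone in CKO (4.31%) and 0 of 8 for the interaction of population and genotype (0.949%). With the replicate number as a block, both were called (1.34 ± 0.37, adjusted p = 0.0379 in control and 1.44 ± 0.37, adjusted p = 0.0279 in CKO), as were 476 and 311 genes in all. Between genotypes its log2 fold change was 0.13 ± 0.49 in gpSSPCs and -0.18 ± 0.72 in pSSPCs, and both signs turned without replicate 1, to -0.24 and 0.50.

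The sort and the makeup of the libraries moved with this population difference. *Nt5e*, which encodes CD73, ran from 143 to 346 CPM in gpSSPCs and 44.5 to 56 CPM in pSSPCs, and *Ly6a*, which encodes Sca1, from 307 to 855 and from 1200 to 2860 CPM. All 9 chondrocyte markers were detected in every library, summing to 26600 to 39100 CPM in control gpSSPCs, 12500 to 19900 in CKO gpSSPCs and 3600 to 8610 in pSSPCs, with *Col2a1* the most abundant. The 7 osteoblast markers, also detected in every library, summed to 17200 to 61200 CPM in gpSSPCs and 4610 to 16000 in pSSPCs, led by *Ibsp* or *Col1a1*. A list of 18 genes known to respond to tissue dissociation summed to 19100 to 23100 CPM in gpSSPCs and 13600 to 17600 in pSSPCs, led by *Fos* or *Junb*. The part of these in the *Bcl2l1* difference was not tested. In bulk RNA, fewer cells of a type and less RNA per cell cannot be told apart.

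**Figure D1:**
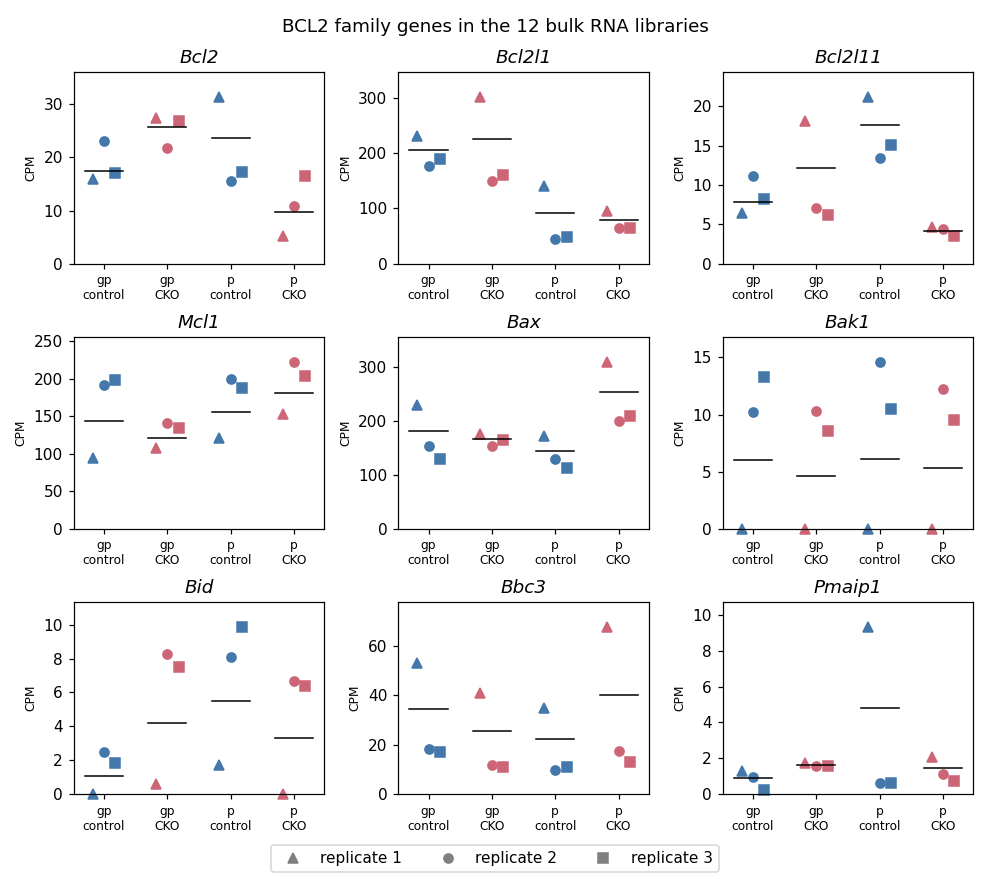
CPM (vertical axes, from 0, one scale per gene) of the 9 members in the 12 bulk RNA libraries; each symbol is 1 library, blue for control and red for CKO, and lines mark the mean of 2 samples (replicate 1, and replicates 2 and 3 combined). *Bcl2l1* lies higher in all 6 gpSSPC libraries than in all 6 pSSPC libraries, *Bax* is higher and *Bcl2l11* lower in CKO than in control pSSPCs without overlap, and *Bak1* is at 0 in every replicate 1.

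The pore former *Bax* was not called in either population, and its pSSPC libraries did not overlap between genotypes. Control pSSPCs held 172, 130 and 113 CPM and CKO pSSPCs 310, 201 and 209 CPM, so the lowest CKO library lay above the highest control library. In gpSSPCs the values were 230, 154 and 130 CPM in control and 177, 154 and 165 CPM in CKO, with overlap. The pSSPC log2 fold change of *Bax* was 0.85 ± 0.55 (edgeR, adjusted p = 1) and the gpSSPC one -0.12 ± 0.47 (adjusted p = 1). With the replicate block the adjusted p for pSSPCs was 0.907, so *Bax* was not called. It was the only member of the 9 that lay wholly higher in CKO pSSPCs, a share near the 9.12% of genes tested that did so.

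*Bak1*, the other pore former, had 0 counts in replicate 1 of all 4 groups. In replicates 2 and 3 it held 14.6 and 10.5 CPM in control pSSPCs, 12.2 and 9.53 in CKO pSSPCs, 10.2 and 13.3 in control gpSSPCs and 10.3 and 8.57 in CKO gpSSPCs. These rested on 26 to 66 counts a library, and the genotypes overlapped in both populations. Its SE exceeded 2 on the log2 scale in both genotype comparisons (2.28 in gpSSPCs and 2.32 in pSSPCs).

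Among the BH3-only genes, *Bcl2l11* was not called either, and its pSSPC libraries lay apart in the other direction. It held 21.2, 13.4 and 15.1 CPM in control pSSPCs and 4.68, 4.45 and 3.47 CPM in CKO pSSPCs, so every CKO library lay below every control library. The log2 fold change was -2.04 ± 1.45 (edgeR, adjusted p = 1), not called, and with the replicate block -2.01 ± 1.18 (adjusted p = 1). It was 1 of 9 members to lie wholly lower there, a share near the 8.74% of genes tested that did so, and in gpSSPCs, where no member lay wholly lower, 8.16%. *Bcl2l11* in gpSSPCs ran 6.47, 11.2 and 8.27 CPM in control and 18.1, 7.11 and 6.23 CPM in CKO. Replicate 1 was the highest of the 3 CKO libraries and the lowest of the 3 controls. The interaction was 2.66 ± 1.52 (edgeR, adjusted p = 1).

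*Bbc3*, a direct target of p53, held 34.8, 9.63 and 10.8 CPM in control pSSPCs and 67.6, 17.2 and 12.8 CPM in CKO pSSPCs. The gpSSPC values were 53.1, 18.3 and 16.9 CPM in control and 40.9, 11.5 and 10.9 CPM in CKO. Each CKO library lay above its numbered control in pSSPCs and below it in gpSSPCs, while the groups overlapped in both because replicate 1 was far higher throughout. The log2 fold change was 0.90 ± 1.10 in pSSPCs and -0.45 ± 0.85 in gpSSPCs (edgeR, adjusted p = 1 in both). Without replicate 1 in both genotypes they were 0.50 and -0.65, but the sign turned where replicate 1 was left out of CKO pSSPCs alone (-0.54) or of control gpSSPCs alone (0.54).

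*Bid*, which caspase 8 cleaves to link death receptors to mitochondria, had at most 2 counts in any replicate 1 library. Its counts in replicates 1, 2 and 3 were 2, 26 and 51 in control pSSPCs, 0, 24 and 37 in CKO pSSPCs, 0, 8 and 9 in control gpSSPCs and 1, 21 and 29 in CKO gpSSPCs. Replicates 2 and 3 alone carried its signal, and in gpSSPCs the filter on low counts removed it. *Pmaip1* had 11, 2 and 3 counts in control pSSPCs, 4, 4 and 4 in CKO pSSPCs, 3, 3 and 1 in control gpSSPCs and 3, 4 and 6 in CKO gpSSPCs. Its CPM lay wholly higher in CKO gpSSPCs (1.75, 1.58 and 1.56 against 1.29, 0.932 and 0.202), as did that of 6.54% of genes tested there, but these are 1 to 6 counts a library and a count of 0 allows up to 3, so no difference was detectable at this depth.

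**Figure D2:**
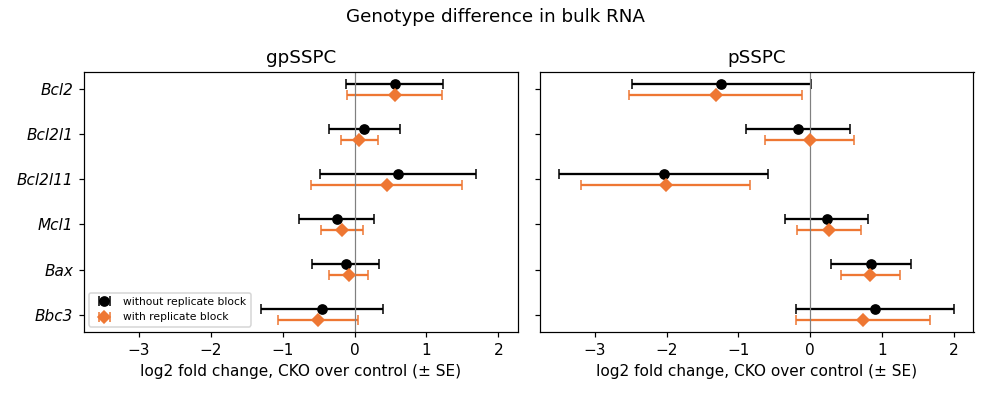
Log2 fold change of CKO over control (horizontal axis, bars are SE) for the 6 members with at least 5 counts in every library, in gpSSPCs (left) and pSSPCs (right), fitted without (black) and with (orange) the replicate block. In pSSPCs *Bax* lies at 0.85 and *Bcl2l11* at -2.04, and no member was called in either fit.

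Between the populations within a genotype, no member was called in the main comparison, with or without overlap. In CKO, *Bcl2*, *Bcl2l1* and *Bcl2l11* lay wholly higher and *Mcl1* and *Bax* wholly lower in gpSSPCs than in pSSPCs, that is 3 and 2 members beside 11% and 12.2% of 13173 genes. In control, *Bcl2l1* lay wholly higher and *Bcl2l11* wholly lower, beside 13.8% and 12.2%. For *Bcl2* in CKO the log2 difference was 1.38 ± 0.85, for *Bax* -0.61 ± 0.46 and for *Mcl1* -0.58 ± 0.53 (edgeR, adjusted p = 1 in each). Of the 8 members tested, 3 had a log2 difference above 0 in control, beside 48.9% of all genes, and 4 in CKO, beside 48.7%. These comparisons share libraries with the genotype comparisons. From control to CKO, *Bbc3* and *Bid* RNA moved one way in all 3 numbered gpSSPC pairs and the other way in all 3 pSSPC pairs, 2 members beside 7.72% of 13173 genes.

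The genes whose levels followed a member most closely over the 12 libraries were found among 6021 genes with a mean of at least 20 CPM. For *Bcl2l1* they were *Dnajb1*, a heat shock co-chaperone and one of the dissociation genes (Pearson r = 0.984), *Fscn1*, an actin bundler (0.981), and *Rarres1* (0.97), and the correlations stayed at 0.971 to 0.984 over the 8 libraries of replicates 2 and 3. For *Mcl1* they were *Nap1l4* (0.932), *Col4a2* (0.922) and *Vcam1* (0.919), which dropped to 0.904, 0.797 and 0.691 without replicate 1. *Bax* was followed by *Kbtbd3* (0.927), *Cyp2u1* (0.92) and *Thap3* (0.907). These are descriptions over libraries that share populations and the offset of replicate 1.

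The rest of the pathway was read in 6 lists, with the dissociation genes beside them. No gene of any list was called by edgeR in either genotype comparison. Of the other BCL2 family genes, 5 of 8 tested lay above 0 in gpSSPCs (median log2 fold change 0.43) and 1 of 7 in pSSPCs (-0.43), beside 50.2% and 48.7% of all genes. *Bnip3*, a hypoxia-induced mitophagy receptor, led this list in gpSSPCs, with 63.4, 59.9 and 57.5 CPM in control and 133, 106 and 103 CPM in CKO. Its CKO libraries lay wholly above the controls (0.96 ± 0.46, edgeR, adjusted p = 1). In pSSPCs *Bnip3* stood at -0.44 ± 0.86.

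Downstream of the mitochondrion, 7 of 13 apoptosome, caspase and nuclease genes lay above 0 in gpSSPCs and 6 of 13 in pSSPCs. *Cycs*, which encodes cytochrome c, held 161, 121 and 124 CPM in control gpSSPCs and 333, 150 and 164 CPM in CKO gpSSPCs (0.79 ± 0.52, edgeR, adjusted p = 1). *Htra2*, a mitochondrial protease, went the other way, with 15.5, 12.4 and 9.27 CPM in control and 5.26, 8.69 and 5.46 CPM in CKO gpSSPCs, wholly lower (-1.10 ± 1.07, edgeR, adjusted p = 1). *Endog*, a mitochondrial nuclease, stood at -1.37 ± 1.34 there, with 18.6 CPM in control and 2.92 in CKO replicate 1 and 4.66 and 3.63 against 6.71 and 4.68 in replicates 2 and 3. Caspase inhibitors split 4 of 6 and 3 of 6. *Xiap*, which blocks caspases directly, was 1.11 ± 0.71 in gpSSPCs, where replicate 1 held 13.8 CPM in control and 54.4 in CKO while replicates 2 and 3 held 20.5 and 21.4 against 22.9 and 21.8. *Cflar*, the decoy of caspase 8, stood at 0.91 ± 0.60 in gpSSPCs and -1.13 ± 0.86 in pSSPCs, again by replicate 1 alone in pSSPCs (100 CPM in control, 15.6 in CKO).

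Of the death receptor genes, 3 of 6 tested lay above 0 in gpSSPCs and 5 of 7 in pSSPCs. *Tnfrsf1a*, the main TNF receptor, held 121, 111 and 124 CPM in control pSSPCs and 242, 158 and 164 CPM in CKO pSSPCs, without overlap (0.76 ± 0.56, edgeR, adjusted p = 1). Genes of the mitochondrial porins and of MCL1 turnover split 2 of 6 and 3 of 6. *Usp9x*, a deubiquitinase of MCL1, held 10.8, 13.7 and 10.3 CPM in control and 2.92, 5.13 and 4.42 CPM in CKO gpSSPCs, wholly lower (-1.53 ± 1.23, edgeR, adjusted p = 1). *Huwe1*, a ubiquitin ligase for MCL1, held 11, 39.8 and 40.5 CPM in control and 57.7, 50.8 and 51.3 CPM in CKO pSSPCs, wholly higher (1.06 ± 0.91, adjusted p = 1). *Fbxw7*, a ubiquitin ligase subunit that marks MCL1 for destruction, was -1.93 ± 1.25 in pSSPCs, where replicate 1 held 45.9 CPM in control and 3.64 in CKO, and replicates 2 and 3 held 18.6 and 15.1 against 12.5 and 11.4 CPM.

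Among the pathway lists, the p53 and stress regulators had the largest share of genes on one side. All 11 lay above 0 in gpSSPCs (median 0.30) and 10 of 11 in pSSPCs (median 0.56), beside 50.2% and 48.7% of all genes, with 0 called. The list was chosen with earlier results of these data known. *Foxo1*, a transcription factor that can switch on *Bcl2l11* and *Bbc3*, held 23.8, 51.3 and 54.8 CPM in control pSSPCs and 70.2, 151 and 154 CPM in CKO pSSPCs, and each CKO library exceeded every control library (1.53 ± 0.77, edgeR, adjusted p = 1). In gpSSPCs it stood at 0.01 ± 0.96. *Phlda3*, a p53 target that restrains AKT, held 115, 101 and 84.5 CPM in control and 174, 155 and 163 CPM in CKO gpSSPCs (0.70 ± 0.44, edgeR, adjusted p = 1). *Ddit3*, which encodes the stress factor CHOP, held 77.7, 83.5 and 105 CPM in control and 98.2, 166 and 174 CPM in CKO gpSSPCs (0.63 ± 0.50).

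*Cdkn1a*, which encodes the cell cycle inhibitor p21, is named here after its values were seen. In pSSPCs it held 1080, 760 and 736 CPM in control and 1210, 1430 and 1440 CPM in CKO, and in gpSSPCs 1270, 754 and 759 CPM in control and 1220, 1260 and 1260 CPM in CKO. Replicates 2 and 3, counted as 1 sample, were higher in CKO in both populations, while replicate 1 was not higher in gpSSPCs. The log2 fold change was 0.56 ± 0.45 in pSSPCs (edgeR, adjusted p = 1) and 0.29 ± 0.48 in gpSSPCs (adjusted p = 1).

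Dissociation genes lay above 0 in 10 of 18 cases in gpSSPCs (median 0.05) and 4 of 18 in pSSPCs (-0.24), with 0 called. Blood markers moved with the replicate: the erythroid list summed to 18.1 to 156 CPM in replicate 1 and to 1200 to 6680 CPM in replicates 2 and 3, led by *Hbb-bs* in the latter, with *Hbb-bt* and *Alas2* at 0 in every replicate 1. In gpSSPCs it also moved with genotype (6510 and 6680 CPM in control, 2800 and 2940 in CKO replicates 2 and 3), as did the basophil and mast cell list (24.5 and 19.8 against 112 and 133 CPM, with *Fcer1a* and *Ms4a2* at 0). In pSSPCs, where *Bax* and *Bcl2l11* did not overlap, the erythroid list was 24.6, 1850 and 1770 CPM in control and 156, 1260 and 1200 in CKO. *Cd74*, an antigen presentation gene, was wholly higher in CKO there (7.64, 4.04 and 0.968 against 110, 18.3 and 16.5 CPM), and the most abundant periosteal marker was *Dcn* in the control and *Prg4* in the CKO libraries. The study's methods also stained the sorted growth plate and periosteal cells for CD31, CD45 and Ter119. The part of these markers in the members' values was not tested.

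Chromatin at the members' promoters was read from the ATAC peak lists, centred on each library's median promoter. The value was the log2 of the highest summit pileup among peaks reaching within 1000 bases of a gene start. The summit itself could lie farther out. Libraries held 12250713 to 46756821 tags after filtering, and 60.3% to 65.4% of 21803 promoters had a peak. All 9 members had a promoter peak in all 12 libraries. None of the 9 members was called between genotypes by limma, beside 0.00774% of 12921 promoters called lower and 0% called higher in gpSSPCs, and 1.12% of 12654 called higher and 0.079% lower in pSSPCs.

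The members' promoters in control lay on both sides of the library median. *Bcl2l1*, *Bbc3* and *Bcl2l11* lay above the median promoter, with control means of 0.69 ± 0.106, 0.68 ± 0.0584 and 0.67 ± 0.200 log2 units in gpSSPCs (SD, n = 3) and 0.68 ± 0.124, 0.57 ± 0.173 and 0.59 ± 0.0748 in pSSPCs. *Bax*, *Bak1*, *Bid* and *Pmaip1* lay below it in both populations, *Pmaip1* lowest at -1.27 ± 0.167 and -1.41 ± 0.171. *Bcl2* and *Mcl1* lay slightly above it. The *Bid* summit used lay at 1158, 1333 and 1437 bases from its start in control gpSSPCs and at 1158, -10 and -15 in CKO gpSSPCs. In pSSPCs it lay within 20 bases of the start. The gpSSPC values of *Bid* thus come from different positions in different libraries, and no genotype difference is read from them. In CKO each mean stayed on its side of the median. *Bcl2l11* stood at 0.35 ± 0.168 in CKO gpSSPCs and 0.82 ± 0.166 in CKO pSSPCs, but its window took in different peaks in different libraries, as described below. At each of its single starts the pSSPC difference between genotypes was instead -0.12, so no change of order is read from these means. No member lay wholly lower in CKO pSSPCs (5.29% of promoters) or wholly higher in CKO gpSSPCs (7%).

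*Pmaip1* had the largest promoter difference of the 9 in pSSPCs. Its values were -1.30, -1.61 and -1.32 in control replicates 1, 2 and 3 and -1.09, -0.58 and -0.83 in CKO, so the groups did not overlap, as was true of 9.05% of promoters in this direction. The difference was 0.57 ± 0.222 (limma, adjusted p = 0.236), and with the replicate block the adjusted p was 0.0622. Without replicate 2 the difference was 0.34. In gpSSPCs *Pmaip1* stood at 0.19 ± 0.237 (adjusted p = 0.998). Its RNA in pSSPCs was 2 to 11 counts a library, too few to set beside this.

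*Bax*, whose RNA groups did not overlap in pSSPCs, had overlapping promoter values there. The pSSPC values were -0.92, -0.79 and -0.85 in control and -0.61, -1.10 and -0.77 in CKO, and the difference was 0.03 ± 0.194 (limma, adjusted p = 0.971). In gpSSPCs they were -1.05, -1.05 and -0.75 in control and -1.18, -1.15 and -1.13 in CKO, wholly lower in CKO as for 3.2% of promoters (-0.20 ± 0.198, adjusted p = 0.998).

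*Bcl2l11* needs its 2 starts read apart. The highest peak within the window gave -0.32 ± 0.116 in gpSSPCs (limma, adjusted p = 0.998; with the replicate block, adjusted p = 0.037) and 0.23 ± 0.123 in pSSPCs (adjusted p = 0.522; with the block 0.0508), and the groups overlapped in both populations. Every library had 2 separate peaks, at the starts 128126038 and 128127575 on chr2, whose upstream sequences are printed above. The edge of the second peak came within 1000 bases of the first start in 2 control and 0 CKO gpSSPC libraries and in 1 control and 3 CKO pSSPC libraries, so the window took in a different peak in different libraries. With the window, *Bcl2l11* was the 1 member whose pairs all moved one way in gpSSPCs and the other way in pSSPCs, beside 8.64% of 12149 promoters.

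Taken peak by peak, a reading added after the data were seen, the *Bcl2l11* genotype differences were smaller. At the first start the gpSSPC values were 0.41, 0.47 and 0.55 in control and 0.36, 0.17 and 0.51 in CKO, a difference of -0.13 ± 0.104 (limma, adjusted p = 0.998, with the block 0.563). The pSSPC values there were 0.65, 0.51 and 0.47 in control and 0.45, 0.49 and 0.33 in CKO (-0.12 ± 0.106, adjusted p = 0.736). At the second start the differences were 0.12 ± 0.0802 in gpSSPCs and -0.12 ± 0.146 in pSSPCs (adjusted p = 0.998 and 0.808). None of these was called, with or without the block, and the pSSPC sign was opposite to that from the window.

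**Figure D3:**
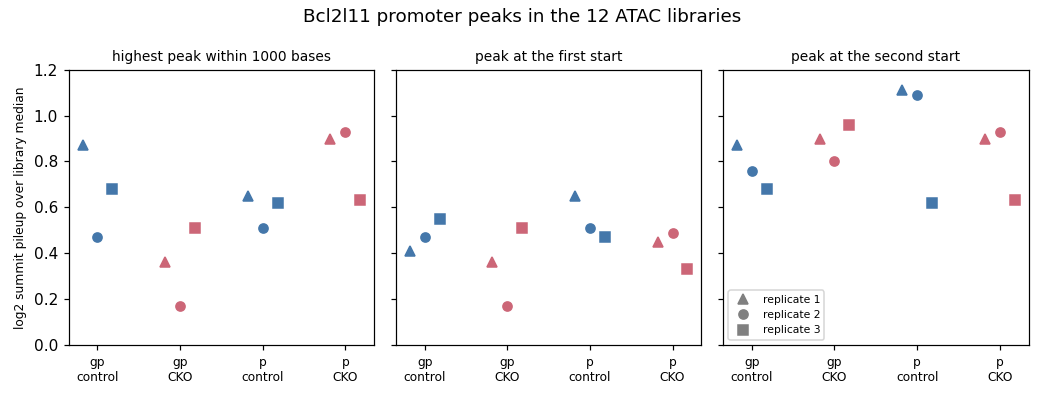
Log2 summit pileup over the library median (vertical axis) at *Bcl2l11* in the 12 ATAC libraries. The left panel shows the highest peak reaching within 1000 bases of the first start, and the middle and right panels the peak at each of the 2 starts. Symbols are libraries, blue for control and red for CKO. On the left the CKO library of each numbered pair is lower in gpSSPCs and higher in pSSPCs, with overlap between the groups in both. The first-start peak is also lower in CKO in each gpSSPC pair, and neither single peak has a higher mean in CKO pSSPCs.

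Promoters of the other lists were close to 0 in both populations. Their medians ran from -0.05 to 0.11 in gpSSPCs and from -0.12 to 0.02 in pSSPCs, without a call. In pSSPCs 0 of 18 dissociation gene promoters lay above 0 (median -0.19), with 1 called.

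Single-cell libraries placed the members in cell classes. After the filter of at least 200 genes a cell, 782 of 785 (Osx-Cre, 8 weeks), 993 of 999 (Prx1-Cre, 8 weeks), 2068 of 2088 (control, 16 weeks) and 2362 of 2373 cells (CKO, 16 weeks) were kept, with median depths of 925.5, 1043, 1427.5 and 1274 UMIs. Clusters were called BMSC-like (bone marrow stromal), PMSC-like (periosteal), chondrocyte-like, OB-like (osteoblast) and pericyte-like from markers, with the members kept out of the clustering. No doublets were removed, and library pairs shared 0 to 10 cell barcodes. With 1 library a group there is no test, each 16-week library pooled several mice, and the exact Poisson 95% intervals given in parentheses cover counting error only.

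*Bcl2* differed most often between classes. At 16 weeks it held 65.6 CPM (56.2 to 76) in BMSC-like cells of control and 56.4 (48.1 to 65.6) in those of CKO. Chondrocyte-like cells held 4.12 (0.104 to 23) and 0 (up to 44.3), PMSC-like cells 13.3 (1.61 to 48.1) and 16.2 (0.41 to 90.3), and OB-like cells 19.9 (8.59 to 39.2) and 3.9 (0.0987 to 21.7). BMSC-like cells were thus above chondrocyte-like and OB-like cells in both libraries and above PMSC-like cells in control, without overlap, while in CKO the PMSC-like interval overlapped. Pericyte-like cells held 79.9 (9.67 to 289) in control and 44.5 (5.39 to 161) in CKO, from 2 UMIs each, and overlapped BMSC-like cells. BMSC-like cells were shallower than chondrocyte-like cells, with median depths of 1395 and 1259.5 UMIs against 3297.5 and 4443. In the 8-week Prx1-Cre library the values were 50.8 (33.5 to 73.9) in BMSC-like and 11.2 (4.11 to 24.4) in chondrocyte-like cells. In the Osx-Cre library no class was separated from BMSC-like cells, which held 42.4 (26.3 to 64.9) against 7.38 (0.893 to 26.6) in chondrocyte-like, 37.7 (13.8 to 82) in OB-like, 52.8 (17.1 to 123) in PMSC-like and 199 (41.1 to 582) in pericyte-like cells. The pericyte-like value came from 3 UMIs in 1 of 17 cells, yet lay above the chondrocyte-like interval. PMSC-like cells of that library held 8420 CPM of periosteal and 16900 CPM of osteoblast markers. In the Prx1-Cre library they held 36300 and 9720 CPM, so the periosteal name is less certain with Osx-Cre.

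Over all members, 13 of 360 pairs of classes within a library had intervals that did not overlap, beside 7.97% of gene-pair comparisons over all genes with a UMI. *Bcl2* supplied 7 of the 13, *Bid* 3, *Bax* 2 and *Pmaip1* 1. *Bid* held 28.1 (22.1 to 35.2) in control BMSC-like cells at 16 weeks against 4.98 (0.603 to 18) in OB-like and 0 (up to 15.2) in chondrocyte-like cells. *Bax* held 190 (173 to 207) in control BMSC-like against 103 (66.6 to 152) in chondrocyte-like cells, and 188 (152 to 230) against 69.1 (34.5 to 124) in OB-like cells of the Osx-Cre library. At a finer clustering (resolution 0.5), where 2 large clusters met no class rule, BMSC-like *Bax* was 101 in control and 108 in CKO, level with chondrocyte-like cells, and BMSC-like *Bcl2* 115 and 73.3. *Pmaip1* had 0 UMIs in BMSC-like cells of both 16-week libraries, which allows up to 1.38 CPM in control and 1.25 CPM in CKO, and 7.47 (1.54 to 21.8) in control OB-like cells from 3 UMIs. *Bcl2l1*, *Bcl2l11*, *Mcl1*, *Bak1* and *Bbc3* separated no pair of classes at this depth.

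Between libraries, no member separated: 0 of 90 pairs within a class lacked overlap, beside 2% of gene-pair comparisons over all genes, and 0 of 18 pairs of whole libraries. In BMSC-like cells at 16 weeks, the class with the most UMIs, *Bax* held 190 (173 to 207) in control and 173 (158 to 189) in CKO. *Bak1* held 25.1 (19.5 to 31.9) and 16 (11.7 to 21.2), *Bid* 28.1 and 21.4 (16.4 to 27.4), *Bbc3* 12.4 (8.51 to 17.4) and 7.13 (4.41 to 10.9), and *Bcl2l11* 9.74 (6.36 to 14.3) and 7.81 (4.95 to 11.7). The 5 pro-death values were all somewhat lower in CKO, each within overlapping intervals. Within the second of the 2 clusters described next, *Bcl2l11* was instead higher in CKO, at 7.64 (2.08 to 19.6) in control and 14.1 (7.49 to 24) in CKO, as was *Bbc3*, at 3.82 (0.463 to 13.8) and 4.33 (1.18 to 11.1), again with overlap.

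*Mcl1* was the member nearest to a genotype separation, with 21.4 (16.2 to 27.7) in control and 33.6 (27.3 to 40.9) in CKO BMSC-like cells. With no gene kept out of the clustering it did separate, narrowly, at 21 (15.8 to 27.2) and 33.8 (27.6 to 41.1), the 1 of 81 pairs to do so. The BMSC-like class was made of 2 clusters that the libraries filled unequally, cluster 0 (led by *Ccl2*, *Iigp1* and *Isg15*; 1088 control and 976 CKO cells) and cluster 1 (with *Fzd5* and *Plxna2* among its leading genes; 597 and 1072 cells). Within cluster 0, *Mcl1* held 22.4 (16.5 to 29.7) and 33.6 (26.1 to 42.6), and within cluster 1 17.2 (7.87 to 32.7) and 33.5 (22.8 to 47.6). The CKO value was higher in both clusters, with overlap in both. *Bcl2* did not differ between the clusters beyond its intervals either, with 63.9 and 72.6 in control and 60.4 and 47.6 in CKO.

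**Figure D4:**
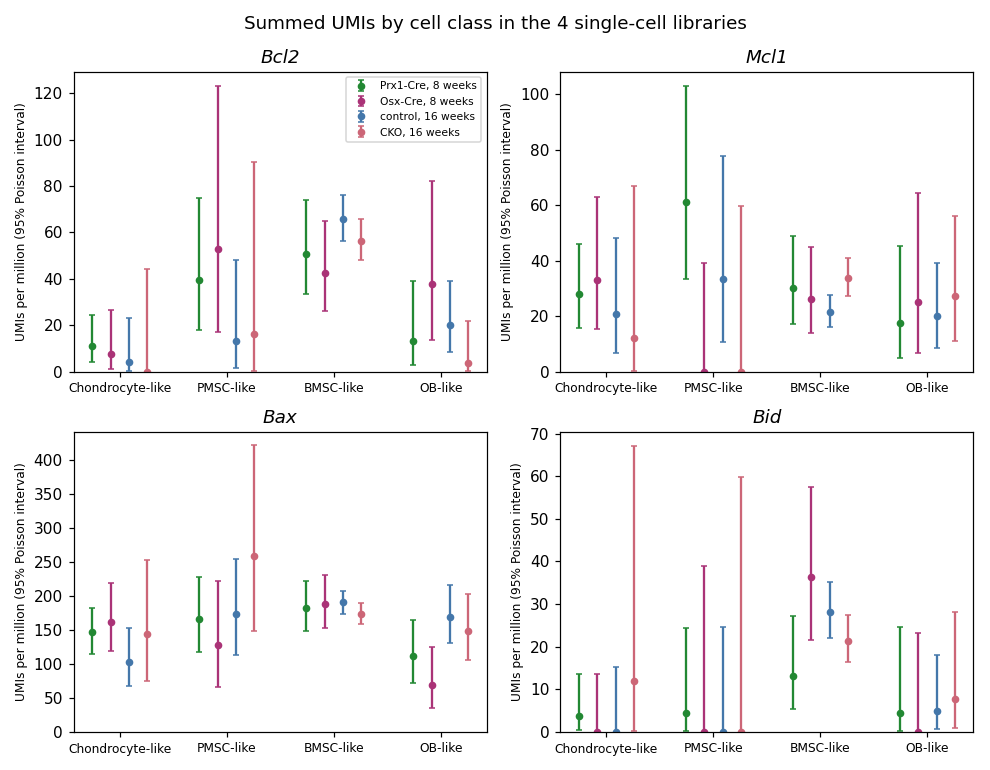
CPM (vertical axes, from 0) of 4 members in 4 cell classes of the 4 single-cell libraries; points are summed UMIs of 1 library and bars exact 95% Poisson intervals. *Bcl2* is higher in BMSC-like than in chondrocyte-like cells at 16 weeks (65.6 against 4.12 in control), and no member separates the 16-week control and CKO libraries within a class.

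Genes around the family did separate the 16-week libraries in BMSC-like cells, where 1.77% of 15286 genes were higher and 2.63% lower in CKO without overlap. *Cdkn1a* was higher in CKO, at 26.2 (20.4 to 33.1) in control and 80.1 (70.2 to 91) in CKO, as was *Huwe1*, at 44.6 (36.9 to 53.4) and 64.2 (55.3 to 74). *Phlda3* was lower, at 162 (147 to 178) and 122 (109 to 135), as were *Tnfrsf1a*, at 233 (215 to 252) and 190 (175 to 207), and *Htra2*, at 59.2 (50.3 to 69.2) and 41.1 (34.1 to 49.1). The *Cdkn1a* difference stood within both clusters, at 29.4 (22.6 to 37.6) against 94.5 (81.6 to 109) in cluster 0 and 13.4 (5.38 to 27.6) against 48.7 (35.5 to 65.1) in cluster 1. For *Phlda3* the intervals overlapped within both, at 169 (152 to 187) against 139 (123 to 156) in cluster 0 and 134 (104 to 169) against 84.4 (66.7 to 105) in cluster 1, and the other genes were not split by cluster. These 5 genes were named after their values were seen. No gene of the other BCL2 family list or of the caspase inhibitors separated.

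The dissociation genes separated the same libraries far more widely. Of 18, 15 were higher in CKO BMSC-like cells without overlap and 0 lower. The list summed to 2830 CPM in control and 6850 in CKO, with *Jund* the most abundant in both (563 and 1260), and to 9170 and 9040 in the 8-week Osx-Cre and Prx1-Cre libraries. *Fos* stood at 251 (232 to 271) in control and 1230 (1190 to 1270) in CKO, and *Jun* at 383 (359 to 407) and 988 (952 to 1020). *Mcl1* and *Cdkn1a*, both also known as rapidly inducible genes, moved in the same direction as this list, and its part in their values was not tested. The myeloid marker list was lower in CKO BMSC-like cells, at 198 CPM in control and 30.6 in CKO, as was the erythroid list, at 645 and 315. The part of these markers in the differences between the 16-week libraries was not tested either.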

How the data were processed

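The authors aligned reads to mm10 and deposited HTSeq counts per gene for bulk RNA (STAR, HTSeq and DESeq2 are named in the submitters' processing notes; library preparation was a Smart-seq2 variant with UMI barcodes), 10x UMI counts for single cells (matrix header 3.1.0), and MACS 2.2.7.1 peak lists called in each library. The deposited peak lists hold the summit pileup signal, the fold enrichment ratio and -log10 p and q values (q threshold 5%); only pileup and -log10 q were used. The deposited pileup is not scaled for depth. RNA was taken from 1000 cells a library.

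Counts were fitted here with edgeR 4.0.16 (R 4.3.3; TMM, filterByExpr, quasi-likelihood test, Benjamini-Hochberg adjustment over all genes tested, threshold 0.05), promoters with limma 3.58.1 over those with a peak in all 6 libraries of a population, and cells were clustered with Seurat 5.3.0 (20 principal components at 8 weeks and 22 at 16 weeks). DESeq2 1.42.0 was an alternative. Of 53801 identifiers, 53620 matched a symbol. Bulk replicates 2 and 3 were summed because they differed by about sampling noise. Deviations from group means correlated between same-numbered control and CKO libraries (r = 0.533 to 0.587 in RNA and 0.167 to 0.532 in ATAC, each library closest to its own number), so the numbers were taken to pair libraries, from the data and not from the labels, and fits with the replicate block are given beside results whose call they change. The main design has no block. Scripts were tested on simulated data.

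The members and lists were chosen with earlier results of these data known. Genes named by rule were the 9 members, *Zmpste24* and the 3 genes most like *Mcl1*, *Bax* and *Bcl2l1*. From each list, the rule admitted up to 3 genes with the smallest p in a genotype comparison. Genes outside the rule were named too, among them *Fos*, *Jun*, *Cd74*, genes of the sort and leading or undetected genes of marker lists. Only some of those are marked as named after their values were seen. Not every gene that this rule admits is described. Cell classes rest on rebuilt clusters and may differ from those of the study.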

Additional observations from a re-analysis of the deposited data

Results flagged for a closer look

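3 members moved one way in every numbered pair of gpSSPC libraries and the other way in every pSSPC pair. Replicates 2 and 3 of the RNA count as 1 sample, so the RNA patterns rest on 2 independent pairs a population. The same pattern was met by 7.72% of 13173 genes in RNA, where 2 members showed it, and by 8.64% of 12149 promoters in ATAC, where 1 did.

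*Bbc3* RNA, CKO minus control, was -12.2, -6.8 and -6 CPM in gpSSPC replicates 1, 2 and 3 and 32.8, 7.57 and 2 CPM in pSSPCs. The test of the difference between these effects did not call it (edgeR interaction, log2 -1.33 ± 1.44, adjusted p = 1), and it ran from -2.52 to 0.12 as replicates were left out.

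*Bid* RNA differed by 0.585, 5.81 and 5.72 CPM in gpSSPCs and by -1.7, -1.41 and -3.46 CPM in pSSPCs, from at most 2 counts a library in replicate 1. The interaction was 2.66 ± 3.30 on the log2 scale (edgeR, adjusted p = 1).

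*Bcl2l11* promoter pileup, as the highest peak in the window, differed by -0.50, -0.29 and -0.17 log2 units in gpSSPCs and by 0.25, 0.43 and 0.01 in pSSPCs. The difference between populations was not tested. The window took in the second of the 2 *Bcl2l11* peaks in 2 control and 0 CKO gpSSPC libraries and in 1 control and 3 CKO pSSPC libraries, and at the single peaks the group differences were -0.13 and 0.12 in gpSSPCs and -0.12 and -0.12 in pSSPCs.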

How the results depend on the processing

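Genes called at an adjusted p under 0.05 (0 in each RNA comparison) depended on the fit. In the order gpSSPC genotype, pSSPC genotype, interaction, control population and CKO population, no filter on low counts gave 3, 5, 2, 89 and 56. Each library counted as a sample gave 559 and 365 in the population comparisons. DESeq2 gave 1 in gpSSPCs and 251 and 107 in the population comparisons. RLE size factors in edgeR kept every count.

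With the replicate block, which pairs same-numbered libraries, the RNA counts were 12, 38, 2, 476 and 311, with 1 member (*Bcl2l1*) called in each population comparison, and the ATAC counts 77 and 540. Each library as a sample with the block gave 5 in pSSPCs, 13 for the interaction and 2074 and 1475 between populations, with 2 members called in each of the latter. *Bcl2l1* changed sign under that pairing (-0.03 in gpSSPCs, 0.19 in pSSPCs, -0.18 for the interaction) and was 0.02 in pSSPCs with each library a sample. The block changed no other call of a member beyond *Bcl2l11* ATAC in gpSSPCs.

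Leaving out replicate 1 left replicates 2 and 3, near copies, as separate samples. Replicate 1 was also left out of 1 group at a time, which leaves the groups unbalanced. Over all these fits the genes called ran from 0 to 5180, 8275, 6866, 9169 and 8064, and members called from 0 to 4, 4, 6, 5 and 5, the highest all without replicate 1 in every group; such counts measure technical spread. Log2 fold changes that crossed 0 were, in gpSSPCs, *Bcl2l1* (-0.39 to 0.29), *Bcl2l11* (-0.51 to 0.71), *Bax* (-0.22 to 0.27) and *Bbc3* (-1.62 to 0.54); in pSSPCs *Bcl2l1* (-0.43 to 0.77), *Mcl1* (-0.09 to 0.47) and *Bbc3* (-0.54 to 1.94); for the interaction *Bcl2l1* (-0.73 to 0.59) and *Bbc3* (-2.52 to 0.12); between control populations *Bcl2* (-0.48 to 0.28), *Mcl1* (-0.46 to 0.40) and *Bbc3* (-0.22 to 1.67); between CKO populations *Bbc3* (-1.79 to 0.76). In pSSPCs *Bax* kept its sign (0.56 to 1.09), as did *Bcl2l11* (-2.14 to -1.78). *Mcl1* in gpSSPCs also kept its sign but ran from -0.68 to -0.07. *Bcl2l1* stayed higher in gpSSPCs than in pSSPCs, by 1.12 to 2.09 in control and by 1.02 to 1.75 in CKO.

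ATAC promoters called (1 in gpSSPCs, 152 in pSSPCs) ran from 0 to 1 and from 27 to 82 over the left-out replicates, and were 0 and 2 when pileup was scaled by tag number without centring. *Bax* in pSSPCs ran from -0.13 to 0.19 and was -0.12 with that scaling. *Bcl2l11* in pSSPCs was -0.12 with a window of 500 bases and -0.12 at each single start, and in gpSSPCs 0.12 at the second start. In single cells, 1 of 81 pairs of libraries within a class (*Mcl1*, 16 weeks, BMSC-like) lacked overlap with all genes allowed into the clustering, against 0 of 90 as reported. The causes of these changes were not tested. *Pmaip1* was limited by depth in bulk RNA, at 1 to 11 counts a library. *Bak1* was at 0 in replicate 1 although a count of 0 there allows at most 1.29 to 2.55 CPM, under the 8.57 to 14.6 CPM of replicates 2 and 3.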
